A study of Bos taurus with 8 samples.

Results

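The transcripts of the LIF and IL6 signalling route were examined in bovine embryonic stem cells (bESCs): the ligand LIF, the receptor chains LIFR, IL6R and IL6ST, the kinases JAK1, JAK2 and TYK2, the transcription factor STAT3, and the feedback inhibitors SOCS2 and SOCS3. These 10 genes were taken by symbol from a count table with values for 32637 genes, and all 10 passed the filter on low counts that left 15744 genes for testing. The 4 XX lines (A, C, D and E), derived from early or full blastocysts, were each sequenced once in both of 2 culture conditions, which gave 4 libraries per condition. In the MEF condition the cells grew on irradiated mouse embryonic fibroblasts in 5% O2 and were harvested at passages 15 to 17. In the feeder-free condition the same lines had been moved onto vitronectin, also in 5% O2, and were harvested at passages 20 to 22. Both conditions used NBFR medium with FGF2 and the tankyrase inhibitor IWR-1, and no LIF or IL6 is named as a supplement. The methods state that reads of a pure MEF sample were removed from the counts of cells on MEF, but not whether the counts used here are those before or after that step, so the MEF levels may or may not hold reads of feeder cells. The methods add Activin A for feeder-free culture, while the sample names carry the same medium code in both conditions. Loss of feeders, new matrix, later passage and any difference in Activin A therefore coincide in this comparison and cannot be told apart. The methods also refer to sequencing batches, for which the authors made no correction. The batch of each library is not given in the sources used here, so batch may or may not coincide with condition.

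LIF and IL6 are secreted cytokines of one family whose receptors share the signalling chain gp130, the product of IL6ST. LIF binds LIFR, which pairs with gp130, whereas IL6 first binds IL6R and the complex then recruits gp130 pairs. The receptor chains carry the kinases JAK1, JAK2 and TYK2, which phosphorylate STAT3. STAT3 then enters the nucleus and switches on target genes, among them SOCS3, whose product binds gp130 and the JAKs and dampens the signal. LIF-driven STAT3 activity maintains naive mouse embryonic stem cells, while primed lines such as those kept in FGF2 and a WNT pathway inhibitor are propagated without added LIF.

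Reads were counted per gene, so a level is given here in CPM, the gene's counts per 1000000 counts of its library after trimmed mean of M-values (TMM) scaling, and a difference as the log2 fold change of feeder-free over MEF with its standard error (SE). Total counts ran from 44268717 to 54296425 in the MEF libraries and from 49671478 to 102351560 in the feeder-free ones, where line D alone was above 51320214. An exact two-sided permutation test of the totals between conditions gave p = 0.171 (the smallest it can give is 0.0286), and 3 counts corresponded to between 0.0293 and 0.0720 CPM. Pluripotency transcripts were present in every library: POU5F1 averaged 2048 ± 245 CPM on MEF and 1850 ± 84.6 in feeder-free culture (SD, n = 4), SOX2 432 ± 33.5 and 339 ± 8.62, and NANOG 262 ± 22.2 and 213 ± 19.1. All counts come from whole cultures, in which fewer cells of a type and less RNA per cell cannot be told apart.

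Of the 10 genes, 0 were called higher and 0 lower in feeder-free bESCs when edgeR's quasi-likelihood test was run on condition alone (the unpaired fit). A call needed a 1.5-fold difference or more together with an adjusted P-value below 0.05. In that fit 0.724% of all tested genes were called higher and 1.00% lower. SOCS2 and SOCS3, 2 of the 10, had an unadjusted P-value under 0.05, against 21.6% of all genes tested, and DESeq2 on the same samples called both of them higher. When the line was added as a term (the paired fit), since each line was present in both conditions, 3 of the 10 were called higher, namely IL6R, SOCS2 and SOCS3, and 0 lower. The paired fit called 5.52% of all tested genes higher and 4.53% lower. The median log2 fold change of the 10 genes was 0.01 in the unpaired fit, with 5 above 0 and 5 below, and that of all tested genes was 0.01. The calls of the paired fit thus fell on 1 receptor chain and both feedback inhibitors, while LIF, LIFR, the shared chain, the kinases and STAT3 passed in neither fit.

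**Figure D1:**
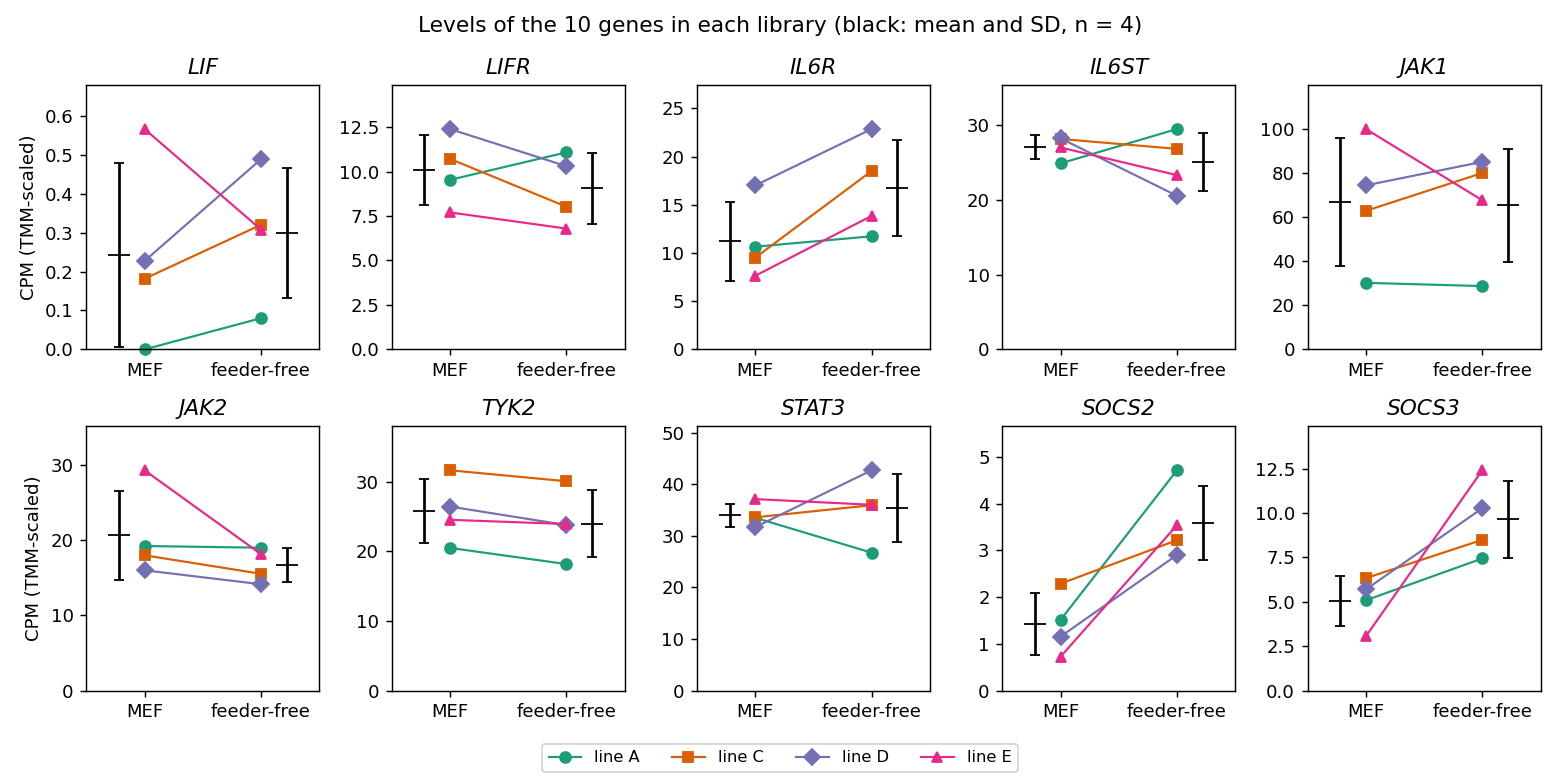
Level of each of the 10 genes in CPM after TMM scaling (y axes, each starting at 0) in the MEF and feeder-free libraries, with 1 coloured line per bESC line and black bars for the mean and SD of 4 libraries. The MEF and feeder-free points do not overlap for SOCS2 and SOCS3, IL6R goes up in all 4 lines, and line A lies apart from the rest for JAK1 in both conditions.

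The ligand LIF was close to the detection limit. On MEF it had 0 counts in line A, 10 in line C, 11 in line D and 25 in line E, and in feeder-free culture 4, 17, 50 and 16 counts in the same order. These counts correspond to 0 to 0.566 CPM on MEF and 0.0803 to 0.489 CPM without feeders, so the conditions overlapped, and line A was the lowest in both. The fold change was 0.31 ± 0.90 (SE) in the unpaired edgeR fit (adjusted P = 0.889) and 0.61 ± 0.69 in the paired one (adjusted P = 0.581). No difference in LIF was detected. In line A on MEF, a count of 0 allows up to 0.0720 CPM.

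LIFR, the chain that binds LIF, ranged from 7.70 to 12.4 CPM on MEF and from 6.79 to 11.1 CPM in feeder-free culture. It was lower without feeders in lines C, D and E and higher in line A, with log2 ratios between -0.42 and 0.22. The edgeR fold change was -0.16 ± 0.22 (adjusted P = 0.743) in the unpaired fit and -0.16 ± 0.17 (adjusted P = 0.543) in the paired fit. IL6ST, the shared chain, overlapped between conditions, with 24.9, 28.2, 28.2 and 27.0 CPM on MEF in lines A, C, D and E, against 29.5, 26.8, 20.6 and 23.3 CPM without feeders. Its fold change was -0.12 ± 0.14 in the paired edgeR fit (adjusted P = 0.584), and the lines did not agree in sign, line A being higher and the other 3 lower.

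IL6R, the chain that binds IL6, went the other way from LIFR in 3 lines. On MEF it was at 10.7 CPM in line A, 9.51 in line C, 17.0 in line D and 7.63 in line E. In feeder-free culture the levels were 11.7, 18.5, 22.9 and 13.9 CPM. Each line was higher without feeders, but line A moved little, with a log2 ratio of 0.14 beside 0.96, 0.43 and 0.86 in lines C, D and E, and the MEF library of line D exceeded the feeder-free libraries of lines A and E, so the conditions overlapped. The mean went from 11.2 ± 4.07 to 16.7 ± 4.97 CPM (SD, n = 4). In the unpaired edgeR fit the fold change was 0.58 ± 0.29 and was not called (adjusted P = 0.286). In the paired fit it was 0.60 ± 0.17 and was called (adjusted P = 0.0433), at a 1.51-fold difference that lies next to the 1.5-fold limit. With 3 lines in the paired fit, IL6R was called without line A (adjusted P = 0.0286) and not without line C (adjusted P = 0.171), line D (adjusted P = 0.117) or line E (adjusted P = 0.0975).

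The balance of the ligand-binding chains can be read within a library without any scaling, as IL6R counts per LIFR count. On MEF the ratio was 1.12 in line A, 0.888 in line C, 1.37 in line D and 0.991 in line E. In feeder-free culture it was 1.06, 2.31, 2.22 and 2.04. Lines C, D and E thus all ended above 2 while line A stayed where it was, so the lines did not shift alike. The genes differ in length, hence the ratio compares libraries and does not give the proportion of the transcripts themselves. Neither IL6 nor OSM, another ligand that uses gp130, had a count in any of the 8 libraries.

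**Figure D2:**
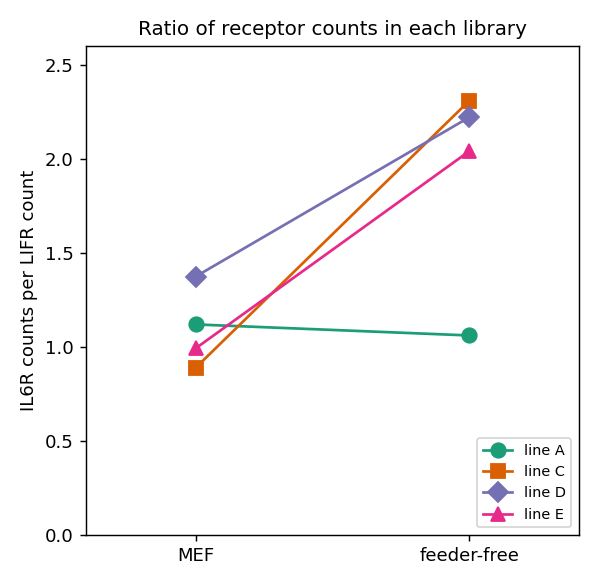
IL6R counts divided by LIFR counts in each library (y axis, from 0) on MEF and in feeder-free culture, with 1 line per bESC line. Lines C, D and E end between 2.04 and 2.31 and line A at 1.06.

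Among the kinases, JAK1, which is bound to gp130 and to most cytokine receptors of this class, was called for line and not for condition. Its levels on MEF were 30.2, 62.8, 74.4 and 99.9 CPM in lines A, C, D and E, and in feeder-free culture 28.7, 80.0, 85.0 and 67.6 CPM. Line A held the lowest level in both conditions, under the lowest value of any other line in either. The paired fold change for condition was -0.02 ± 0.15 (edgeR, adjusted P = 0.941), and its sign changed with the scaling, being 0.02 with library size alone. The F test of the line term gave an adjusted P = 0.00800 in edgeR, with a 2.79-fold range between the lowest and highest line means. JAK1 was 1 of 10 genes called for line, while 11.8% of all tested genes were. Without line A it was no longer called for line (adjusted P = 0.757).

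JAK2, the kinase of the growth hormone and erythropoietin receptors as well as of this route, ranged from 16.0 to 29.3 CPM on MEF and from 14.1 to 19.0 CPM without feeders. All 4 lines were lower in feeder-free culture, by log2 ratios of -0.02 to -0.69, the last of them in line E. The paired edgeR fit gave -0.27 ± 0.15 (adjusted P = 0.235), so JAK2 was not called. TYK2, first known from interferon signalling, was likewise lower in all 4 lines by small steps, with log2 ratios of -0.04 to -0.17 and a paired fold change of -0.11 ± 0.12 (edgeR, adjusted P = 0.563). Line A had the lowest TYK2 in both conditions, at 20.5 and 18.2 CPM, and line C the highest, at 31.6 and 30.04 CPM, with an adjusted P = 0.0924 for line in edgeR. The JAK genes did not share 1 order of lines: line A had 0.636 and 0.661 JAK2 counts per JAK1 count on MEF and without feeders, against 0.166 to 0.293 in the other lines.

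STAT3, the factor on which these receptors converge, was at 33.5, 33.6, 31.7 and 37.1 CPM on MEF in lines A, C, D and E. In feeder-free culture it was at 26.7, 35.9, 42.7 and 36.0 CPM. The lines went both ways, line A down and line D up, and the feeder-free values spread more widely (SD 6.56 CPM against 2.27 CPM) around a similar mean (35.3 against 34.0 CPM). The fold change was 0.06 ± 0.15 in the unpaired edgeR fit (adjusted P = 0.875) and 0.04 ± 0.14 in the paired fit (adjusted P = 0.875). Its direction rested on line D, since the paired value without that line was -0.09. Transcript levels do not show phosphorylation, through which STAT3 is activated.

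**Figure D3:**
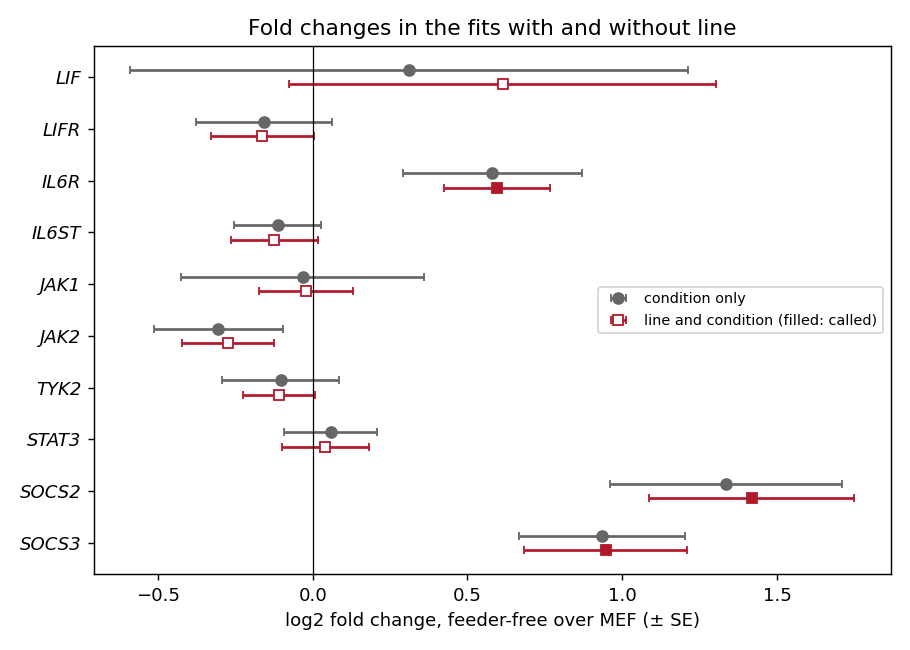
Log2 fold change of feeder-free over MEF with its SE (x axis) for each of the 10 genes, in the unpaired fit (grey) and the paired fit (red squares, filled where called). IL6R, SOCS2 and SOCS3 are the filled points, at 0.60, 1.42 and 0.95. JAK1, TYK2, IL6ST and STAT3 lie near 0, and JAK2 lies at -0.30 in the unpaired fit and -0.27 in the paired fit.

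SOCS2, an inhibitor best known from growth hormone signalling, had the largest fold change of the 10 in both fits. Its levels on MEF were 1.51 CPM in line A, 2.29 in line C, 1.16 in line D and 0.725 in line E, from 32 to 126 counts. In feeder-free culture they were 4.72, 3.22, 2.90 and 3.54 CPM, from 171 to 297 counts. Every feeder-free library was above every MEF library, and the change was least in line C (log2 ratio 0.49) and greatest in line E (2.23). The mean went from 1.42 ± 0.662 to 3.59 ± 0.791 CPM (SD, n = 4). The fold change was 1.34 ± 0.37 in the unpaired edgeR fit (adjusted P = 0.0839, not called) and 1.42 ± 0.33 in the paired fit (adjusted P = 0.0213, called), the latter a 2.67-fold difference. A long non-coding RNA, LOC132345250, overlaps SOCS2 and was at 0 in 7 libraries and at 0.120 CPM in feeder-free line A.

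SOCS3, the inhibitor induced by STAT3 that acts on gp130 itself, was at 5.09, 6.34, 5.70 and 3.06 CPM on MEF in lines A, C, D and E. In feeder-free culture it was at 7.44, 8.49, 10.3 and 12.4 CPM. Again no feeder-free library fell to the level of an MEF library, and line E, lowest on MEF and highest without feeders, had a log2 ratio of 2.01 beside 0.55, 0.42 and 0.85 in lines A, C and D. The edgeR fold change was 0.94 ± 0.27 in the unpaired fit (adjusted P = 0.0888, not called) and 0.95 ± 0.26 in the paired fit (adjusted P = 0.0392, called). Without line E the paired value fell to 0.62 ± 0.19 (edgeR, adjusted P = 0.0733). Relative to STAT3 in the same library, there were 0.152, 0.189, 0.180 and 0.0824 SOCS3 counts per STAT3 count on MEF and 0.279, 0.236, 0.241 and 0.345 without feeders.

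SOCS2 and SOCS3 were the 2 of 10 genes whose conditions did not overlap, both higher in feeder-free culture. Among all tested genes 6.21% were higher without overlap and 8.36% lower without overlap, and 0 of the 10 were in the latter class. In paired edgeR fits with 3 lines, SOCS2 was called without line C (adjusted P = 0.0292) but not without line A (adjusted P = 0.0581), D (adjusted P = 0.0643) or E (adjusted P = 0.0596), and SOCS3 was called in none of the 4 (adjusted P from 0.0511 to 0.103). The fold changes of these fits were 1.34, 1.75, 1.45 and 1.16 for SOCS2 and 1.08, 1.14, 0.98 and 0.62 for SOCS3 without line A, C, D and E. Over all genes the higher calls also fell in them from 869 to between 376 and 662, except without line A, where there were 918.

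**Figure D4:**
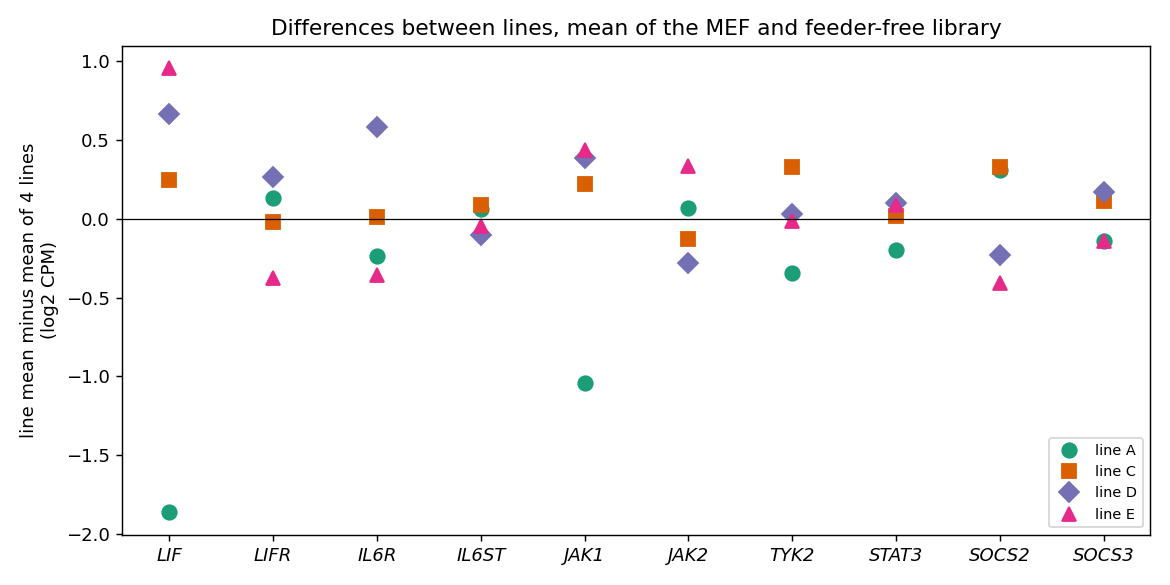
Mean log2 CPM of each line over its MEF and feeder-free library, minus the mean of the 4 lines (y axis), for each of the 10 genes. Line A is about 1 log2 unit below the mean for JAK1 and further below for LIF, where it had 0 and 4 counts, and the lines lie close together for IL6ST, STAT3 and SOCS3.

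The lines differed least for IL6ST, with a 1.14-fold range between line means, and for STAT3 and SOCS3, with 1.23-fold and 1.24-fold ranges. LIFR was lowest in line E in both conditions and IL6R highest in line D in both, with ranges of 1.56-fold and 1.91-fold. Neither passed the test for line in edgeR (adjusted P = 0.265 for LIFR and adjusted P = 0.0749 for IL6R). LIF had the widest range, 7.05-fold, from counts of 50 or fewer in each library (adjusted P = 0.193 for line in edgeR).

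The genes whose log2 CPM followed these 3 most closely over the 8 libraries are given as a description. For IL6R they were VWA1 (r = 0.972), FOXJ1 (r = 0.966) and the collagen gene COL3A1 (r = 0.961). For SOCS2 they were PPIC (r = 0.972), LOC101904156 (r = 0.964) and PIPOX (r = 0.961). For SOCS3 they were TSACC (r = 0.996), the NF-kB adaptor BCL10 (r = 0.991) and GAL3ST3 (r = 0.989). The 8 points share their lines and conditions, and the closest of 15744 genes will have high values in so few libraries.

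The wider pathway was described over 79 further genes, 68 of them tested. In the unpaired edgeR fit 2 were called higher, CLCF1 among them, and 0 lower. In the paired fit 10 were called higher and 2 lower, against 5.52% and 4.53% of all tested genes, and the median log2 fold change of the 68 was 0.12, against 0.01 for all tested genes. Among the other ligands that signal through gp130, 5 of 9 were tested, all with a fold change above 0, and 2 were called higher in the paired fit, in which 5.52% of all tested genes were. CLCF1, which acts through the CNTF receptor, was at 3.00, 4.70, 5.02 and 3.33 CPM on MEF in lines A, C, D and E and at 7.46, 8.64, 13.05 and 10.5 CPM without feeders. It was called in both fits, with a paired fold change of 1.31 ± 0.19 (edgeR, adjusted P = 0.00368; unpaired adjusted P = 0.0423). IL11 averaged 3.83 ± 0.751 CPM on MEF and 9.03 ± 6.11 CPM without feeders, where line D alone reached 17.9 CPM, and was called in the paired fit at 1.04 ± 0.30 (edgeR, adjusted P = 0.0429) and not in the unpaired fit (adjusted P = 0.132). The IL11 call was lost without line C, D or E, whereas CLCF1 was called in all 4 paired fits with 3 lines.

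Of the 4 other receptor chains of the family, IL27RA, which pairs with gp130 to bind IL27, was called higher in the paired fit.  Of all tested genes, 5.52% were called higher and 4.53% lower in that fit. IL27RA was the only 1 of the 4 that was called. It went from 42.9 ± 9.62 to 71.3 ± 8.53 CPM (SD, n = 4) without overlap, a paired fold change of 0.75 ± 0.12 (edgeR, adjusted P = 0.00517; unpaired adjusted P = 0.0565), and was called in all 4 paired fits with 3 lines. Being higher without overlap held for 6.21% of all tested genes. The span of IL27RA overlaps those of other annotated genes, PALM3 among them, and whether this affected its counts was not tested. Of 10 tested receptors for other cytokines that use JAKs, 0 were called higher and 1 lower in the paired fit, beside the same 5.52% and 4.53%. The 1 called was IL13RA1, a chain of the IL4 and IL13 receptor. It was lower in 4 of 4 lines at a paired fold change of -0.59 ± 0.16 (edgeR, adjusted P = 0.0345), with the largest step in line D (249 to 108 CPM). IL13RA1 overlaps LOC112445258 and MIR2285CI in the annotation. It was not called in the paired fit with other size factors, with DESeq2, with at least 10 counts in every library, or without line A, D or E.

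None of the 7 other STAT and JAK genes was called in either fit. STAT5B, which acts downstream of growth hormone and prolactin, was at 28.4 ± 1.82 CPM on MEF and 40.9 ± 5.26 CPM without feeders (SD, n = 4). STAT5B was higher in all 4 lines without overlap, at a paired fold change of 0.52 ± 0.12 (edgeR, adjusted P = 0.0183) that stayed under the 1.5-fold limit. Higher levels without overlap were seen for 6.21% of all tested genes. Among 14 further inhibitors, 1 was called higher and 0 lower in the paired fit, against 5.52% and 4.53% of all tested genes. Most of them leaned down, with 10 unpaired fold changes below 0 and 4 above. Their median paired fold change was -0.15, against 0.01 for all tested genes. The 1 called was SOCS1, a direct JAK inhibitor, at 9.35 ± 3.95 and 16.7 ± 8.56 CPM and a paired fold change of 0.77 ± 0.19 (edgeR, adjusted P = 0.0248). SOCS1 overlapped between conditions, was not called in the unpaired edgeR fit (adjusted P = 0.266), and was lost from the paired fit without line C, D or E. So 3 SOCS genes were called higher in the paired fit. The rest of that family in the list, SOCS4, SOCS5, SOCS6, SOCS7 and CISH, named after their values were seen, had paired fold changes between -0.54 and -0.11 and were not called. SOCS4 and SOCS7 were lower in 4 of 4 lines without overlap. So were the inhibitors PIAS1, PIAS2 and PIAS4, also named after their values were seen and not called. PIAS1 was at 39.42 CPM in both libraries of line C. Among all tested genes 8.36% were lower without overlap. For SOCS7 the paired fold change was -0.54 ± 0.17 (edgeR, adjusted P = 0.0559).

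Of 24 genes known as STAT3 targets in other cells, 22 were tested and 0 were called in the unpaired fit. In the paired edgeR fit 5 were called higher and 1 lower, where 5.52% and 4.53% of all tested genes were. KLF5, a pluripotency-associated transcription factor, went from 3.77 ± 1.93 to 17.0 ± 11.6 CPM (SD, n = 4; paired fold change 2.11 ± 0.25, edgeR adjusted P = 0.00151), with 34.1 CPM in feeder-free line D. KLF4, a factor of the same family, went from 0.860 ± 0.131 to 2.17 ± 0.776 CPM (1.29 ± 0.31, adjusted P = 0.0240), and ID1, also a target of BMP signalling, from 75.4 ± 10.2 to 121 ± 29.8 CPM (0.66 ± 0.12, adjusted P = 0.00779). These 3 were higher in 4 of 4 lines without overlap, and 6.21% of all tested genes were higher without overlap. The growth regulator MYC and the early response gene IER3 were called with 3 of 4 lines higher (paired fold changes 0.86 ± 0.25 and 0.82 ± 0.24, edgeR adjusted P = 0.0455 and 0.0442). CCND1, the cyclin of G1 entry, was lower in lines A, C and E and not in D, and dropped by 1.00 ± 0.28 on the log2 scale in the paired fit (edgeR, adjusted P = 0.0388). It overlaps the gene LTO1. With 3 lines in the paired fit, KLF5 was called in all 4 fits, while KLF4 was lost without line C or D, ID1 without D, IER3 without C, D or E, and MYC and CCND1 without A, C or E. The rest of the tested targets were not called, and the median paired fold change of the 22 was 0.27.

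**Figure D5:**
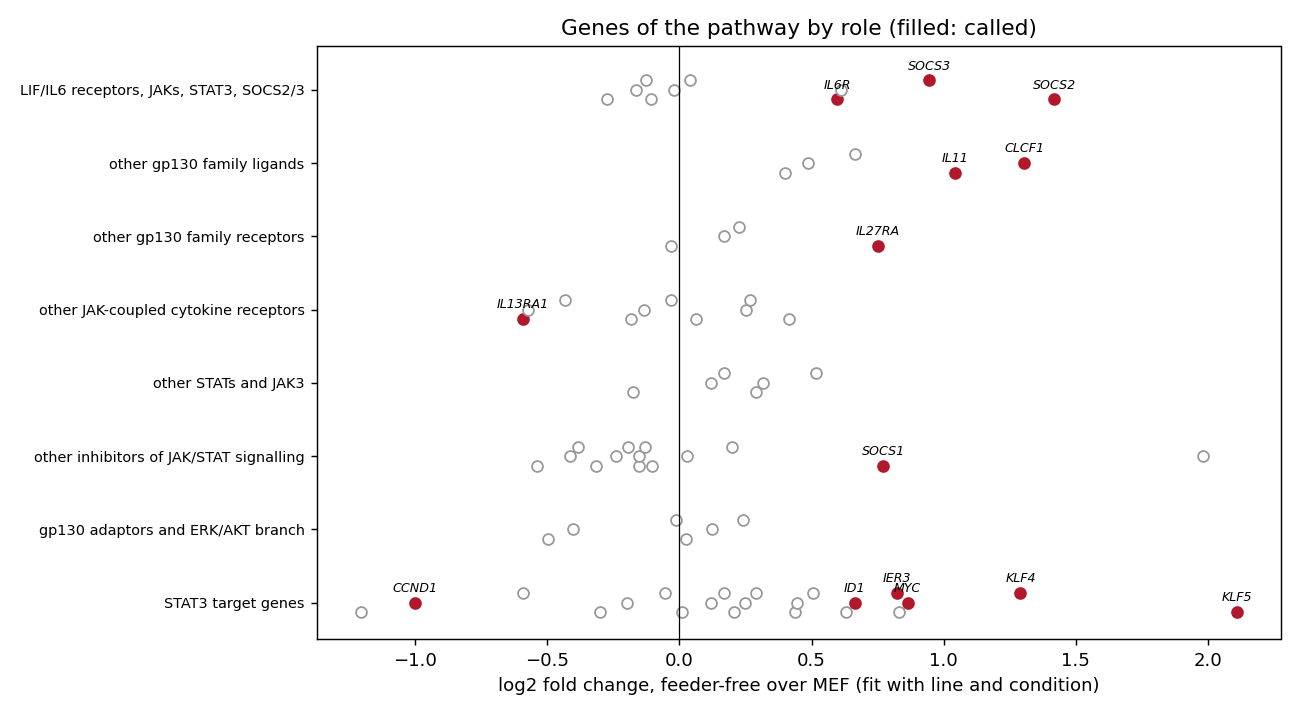
Log2 fold change of feeder-free over MEF in the paired fit (x axis) for the tested genes of each group (rows), with called genes filled and named. Called genes lie on the higher side in each row except IL13RA1 and CCND1.

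Markers of other cells were read in the same libraries. Of 18 fibroblast markers, 16 were tested, 0 were called in the unpaired fit, and in the paired edgeR fit COL3A1 and POSTN were called higher and COL1A2 lower, beside the 5.52% and 4.53% of all tested genes. Their summed level was 1097 to 1510 CPM on MEF and 808 to 2469 CPM without feeders, most of it VIM and COL1A1. FAP and TWIST2 were at 0 in all 4 feeder-free libraries. On MEF TWIST2 had between 2 and 32 counts, while FAP had 0, 4, 0 and 6 in lines A, C, D and E. COL1A2 had 38, 253, 225 and 30 counts on MEF and 0, 22, 18 and 2 without feeders, whereas COL3A1 and POSTN went the other way. Of 8 trophoblast markers, 4 were tested, with KRT8 called higher and GATA2 lower in the paired fit, and CDX2 and IFNT2 at 0 in every library. Their sum, nearly all KRT8, was 536 to 913 CPM on MEF and 574 to 2045 CPM without feeders. Of 6 hypoblast markers 3 were tested and 0 were called, with sums of 4.99 to 15.3 and 3.99 to 7.11 CPM. Among 6 pluripotency markers OTX2 was called lower in the paired fit. All 6 had a fold change below 0, and 5 had an unadjusted P-value under 0.05 in the unpaired edgeR fit, against 21.6% of all tested genes. SALL4, SOX2 and LIN28B were each lower in 4 of 4 lines without overlap, and 8.36% of all tested genes were lower without overlap. SALL4 had a paired fold change of -0.58 ± 0.10 (edgeR, adjusted P = 0.00614) that stayed under the 1.5-fold limit. SOX2 and LIN28B had smaller paired fold changes, both -0.35 (edgeR, adjusted P = 0.0436 and 0.0456). The part of these markers in the levels of IL6R, SOCS2 and SOCS3 was not tested.

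By the RefSeq annotation of ARS-UCD2.0, the genes called in the paired fit lie at chr3:16119387-16174291 (IL6R), chr5:23367498-23372595 (SOCS2) and chr19:53839192-53842544 (SOCS3). JAK1 lies at chr3:80444566-80584006 and shares 10 bases with RAVER2, which had its highest levels in line A (11.4 and 13.4 CPM) where JAK1 had its lowest. IL6ST contains the microRNA gene MIR2359, which was at 0 in every library.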

How the data were processed

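RNA was sequenced as paired-end 150-base reads from 8 bESC cultures. The authors trimmed reads with Trimmomatic, aligned them to ARS-UCD2.0 with STAR, dropped optical duplicates and low-quality alignments, and deposited raw counts per gene from featureCounts (Subread 1.6.2 in the submitters' notes). Reads of a pure MEF sample that mapped to the cow genome were, per the methods, removed from the counts of cells on MEF. Whether the deposited counts are those before or after this step is not given in the sources used here. That sample was not analysed here, and strand was not stated. 3 listed genes without values were left out. Total counts ran from 44268717 to 102351560.

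Counts were analysed in R 4.3.3 with edgeR 4.0.16 (filterByExpr, TMM, glmQLFit, glmQLFTest), with Benjamini-Hochberg adjustment over 15744 genes. CPM for correlations and line ratios used a prior count of 2. A second fit added line. The SE of an edgeR fold change was back-calculated as the absolute log2 fold change divided by the square root of the F statistic. Same-line libraries deviated together (r from 0.421 to 0.664, against -0.523 to 0.249 between lines), and the lines are the same cells in both conditions, so the lines pair the libraries. No libraries of a condition were copies (12 pairs, smallest chi-square per degree of freedom 43.1). DESeq2 1.42.0, limma 3.58.1, other size factors and filters, left-out libraries and lines, and thinning were alternatives. Scripts were tested on simulated data. Symbols of 15679 tested genes matched RefSeq.

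The 10 genes and all lists were chosen with earlier results of these data known. Named genes were these 10, list genes called in either fit, the 2 most abundant tested genes of a list without a call, POU5F1, SOX2 and NANOG, and the 3 closest correlates of each called gene. Values of 2 genes that this rule names are not reported here, and they are left out of the plot of gene groups.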

Additional observations from a re-analysis of the deposited data

Results flagged for a closer look

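Line D in feeder-free culture was sequenced to 102351560 counts, and lines A, C and E to between 49671478 and 51320214. It stood apart from its group by Dixon's test. Totals, the levels of the 10 genes and the IL6R to LIFR ratio were examined in each condition, 24 groups in all, where about 1.2 such results would come by chance. With that library thinned to a depth like that of the others, the paired edgeR fit still called IL6R (0.60, adjusted P = 0.0432), SOCS2 (1.42, adjusted P = 0.0206) and SOCS3 (0.93, adjusted P = 0.0421) higher in feeder-free culture.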

How the results depend on the processing

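Of the 10 genes, 0 were called higher and 0 lower on condition alone with TMM in edgeR. The count of higher genes was 2 with DESeq2 (SOCS2 and SOCS3) and 1 with a likelihood ratio test (SOCS2). It was 3 (IL6R, SOCS2 and SOCS3) with the replicate block, that is with line as a term, and also 3 when that block was combined with limma-voom, DESeq2, RLE size factors, no scaling, a minimum of 10 counts in every library, or thinning of the feeder-free library of line D. The block with 3 lines called 1 without line A (IL6R), 1 without line C (SOCS2), 0 without line D and 0 without line E. Over all alternatives the log2 fold change was 0.39 to 0.85 for IL6R, 1.12 to 1.75 for SOCS2 and 0.62 to 1.14 for SOCS3, with adjusted P-values of 0.00841 to 0.571, 5.08e-04 to 0.178 and 0.00403 to 0.212. LIFR, IL6ST and JAK2 stayed below 0 throughout and were called in none. Of the other pathway genes, 2 were called higher, against 1 with RLE, 0 without scaling, 0 without a filter, 5 with at least 10 counts, 8 with DESeq2, 6 with the likelihood ratio test and 1 with line D thinned. Leaving out 1 library gave 0 to 5, with 5 only without feeder-free line A. With the replicate block there were 10 higher and 2 lower, with voom 11 and 2, with DESeq2 12 and 1, with no scaling, RLE or 10 counts 10 and 1, and with thinning 10 and 2. The block gave 14 higher and 0 lower without line A, 5 and 1 without line C, 5 and 1 without line D, and 6 and 0 without line E, with CLCF1, IL27RA and KLF5 among them in all 4. The genes differing between lines numbered 1 (JAK1), 2 without a filter, 4 with the likelihood ratio test, and 0 (without line A) to 2 (without line E) in leave-one-out fits. Signs near 0 turned: JAK1 was 0.0023 without scaling, 0.018 in the block without scaling and 0.17 in the block without line E, and STAT3 was -0.089 in the block without line D. Leaving out 1 library gave JAK1 -0.27 to 0.23, LIF -0.092 to 1.11, TYK2 -0.23 to 0.010 and STAT3 -0.045 to 0.17. The left-out fits held fewer samples, and other filters kept a smaller or larger number of genes. What caused the changes in calls and signs was not tested. Over all genes the higher and lower calls were 114 and 158, against 73 and 97 without a filter, 83 and 91 without scaling, 199 and 213 with at least 10 counts, 685 and 513 with DESeq2, 448 and 389 with the likelihood ratio test, 869 and 713 with the block, and 0 to 259 and 0 to 231 on leaving out 1 library. In the block the calls over all genes were 999 higher and 791 lower with limma-voom, and 1144 and 838 with DESeq2. They were 1013 and 595 without scaling and 910 and 676 with RLE. With at least 10 counts the block gave 877 and 712 over all genes, and with thinning 867 and 720. Levels per kilobase were not computed, since exon lengths were not used here, so levels are not compared between genes. LIF had 50 counts or fewer in every library.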
